A study of Mus musculus with 15 samples.

Results

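The genes described here are the nuclear genes of the mitochondrial respiratory chain and ATP synthase in mouse embryonic stem cells (ESC). They were chosen by name: every gene symbol in both count tables that begins with Nduf, Uqcr, Atp5 or Cox followed by a digit, and the 4 succinate dehydrogenase genes Sdha, Sdhb, Sdhc and Sdhd. The rule found 102 of 21662 genes. By symbol, 38 belong to complex I, 8 are complex I assembly factors, 4 belong to complex II, 8 to complex III, 18 to complex IV and 17 to complex V, and 9 are complex IV assembly factors. The grouping follows the symbols, so Ndufa4, whose protein is known to sit in complex IV, is listed with complex I, and Atp5sl, known as a complex I assembly factor, with complex V.

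The respiratory chain passes electrons from NADH through complex I, or from succinate through complex II, to ubiquinone, complex III, cytochrome c and complex IV, which reduces oxygen. Complexes I, III and IV pump protons, and ATP synthase (complex V) uses the resulting gradient. Mitochondrial DNA encodes some membrane subunits of complexes I, III, IV and V, whereas the remaining subunits and the assembly factors are encoded in the nucleus. Undifferentiated ESC are known to rely strongly on glycolysis, and several complex IV subunits have isoforms that are largely restricted to muscle, lung or testis. Transcripts of the mitochondrial genome were not analysed here.

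RNA was sequenced in 15 samples of 6 groups, in 2 experiments. The KO experiment held WT (3 samples), Hmga1 KO (2), in which Cas9 had shifted the reading frame of Hmga1, and 2 lines made from it that carried a biotin-tagged Hmga1 cDNA (Hmga1 add-back, 2) or Hmga2 cDNA (Hmga2 add-back, 2) at a defined locus under the ubiquitous CAG promoter. The full-deletion experiment held its own WT, called WT_2 (3), and a line that had lost the coding sequence of Hmga1 (full deletion, 3). All lines have a mixed 129Sv-C57Bl/6 background, were grown with serum and LIF on feeder cells or gelatine, and descend from a parental line that expresses the BirA-V5 biotin ligase from CAG. Each genotype was 1 cell line and the edited lines were clones from single cells, so an effect of the genotype and of the clone cannot be told apart, and p-values measure the spread between cultures of a line.

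Hmga1 was at 221 to 464 CPM (reads of a gene scaled to a common library size) in WT, 217 and 96.1 in KO a and b, 184 and 123 in Hmga1 add-back a and b, 138 and 101 in Hmga2 add-back a and b, 310 to 357 in WT_2 and 10.9 to 12.3 in the full deletion; Hmga2 was at 249 and 222 in the Hmga2 add-back and at 12.8 to 23.8 in all other samples. Within batches a and b the KO was below WT. The Hmga1 add-back was also below WT in both, below the KO in batch a and above it in batch b, so the Hmga1 counts over the annotated exons do not by themselves bear out that add-back label. By Western blot the paper found no detectable Hmga1 protein in the KO and a level comparable to WT in the Hmga1 add-back. It also describes a shorter transcript made from the KO locus. Hmga1 also has a pseudogene with similar sequence. Total counts were 30742898 to 34952136 in the 4 batch a libraries of the KO experiment, 13465399 to 14585417 in the 4 of batch b and 25923536 in WT c, so that depth and batch cannot be told apart, and 14832310 to 21708492 in the full-deletion experiment. The 8 pluripotency markers (Pou5f1, Nanog, Sox2 and others) were all detected in each sample, with a summed level between 3994 and 7441 CPM. The 10 feeder fibroblast markers summed to 5.39 to 18.1 CPM, and 6 of them, among them Col1a2, Col3a1 and Dcn, were at 0 in at least 1 sample. The 10 differentiation markers (Gata4, Gata6, Sox17 and others) summed to 77.4 to 112 CPM in WT and to 44.3 to 60.4 CPM in all 6 samples of the KO line and its derivatives, without overlap. Of the 7 tested, all had a negative log2 fold change against WT in KO, Hmga1 add-back and Hmga2 add-back (medians -1.37, -0.85 and -1.56), and 0 passed the adjusted threshold in each (5, 2 and 4 at an unadjusted p under 0.05, edgeR). Their part in the results against WT was not tested. In the other experiment the sums in CPM were 48.0 (WT_2 a), 74.4 (WT_2 b) and 46.7 (WT_2 c), and the full-deletion samples at 47.9 to 52.3 lay within that range. In bulk RNA, fewer cells of a type and less RNA per cell cannot be told apart.

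Library WT_2 b stood apart from the other 5 of its experiment. Its TMM factor (edgeR's correction of the library size) was 0.752, whereas the remaining libraries had 0.986 to 1.12. Its pluripotency markers gave the highest sum above, where the remaining libraries had 3994 to 4534 CPM. Of the 100 members tested in that experiment, 58 lay below all 5 other samples in WT_2 b and 27 above, against 39.8% and 35.1% of all genes tested. Results of the full deletion are therefore given with and without WT_2 b.

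Together the members took 0.751% to 1.16% of all counts of a sample. Summed over the 102 members, the level was 11059 ± 1189 CPM in WT (SD, n = 3), 10948 ± 614 in KO, 10532 ± 390 in the Hmga1 add-back, 10080 ± 39.4 in the Hmga2 add-back (n = 2 each), 9983 ± 115 in WT_2 and 9240 ± 323 in the full deletion (n = 3 each). The KO-derived groups lay within the range of the WT samples or just below it, and all 3 full-deletion samples (8984, 9603 and 9133 CPM) lay below all 3 WT_2 samples (9864, 9991 and 10093). That order depends on the scaling. As a share of all counts, the members took 1.0015%, 1.05% and 1.01% in full deletion a, b and c and 0.978%, 0.751% and 0.995% in WT_2 a, b and c, so the full deletion was then the higher group, also without overlap. The TMM factors were 1.10 to 1.12 in the full deletion and 0.752 to 0.992 in WT_2. The 2 experiments were normalised separately, so their sums are set side by side only.

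Levels were compared between genes as RPKM, which is CPM per kilobase of exon. In WT the beta and alpha subunits of the ATP synthase catalytic head were the highest of complex V, Atp5b at 971 ± 35.4 RPKM (SD, n = 3) and Atp5a1 at 516 ± 59.2, followed by the central-stalk gene Atp5c1 at 187 ± 7.88. Complex IV was led by the structural subunits Cox6c (439 ± 71.0), Cox5b (436 ± 115) and Cox4i1 (410 ± 93.8), whose means differed by less than their spread. Complex III was led by the hinge protein gene Uqcrh (319 ± 125), with Uqcrb (191 ± 109) and the core protein gene Uqcrc1 (103 ± 25.8) below it. In complex I the highest were Ndufa12 (212 ± 11.04), Ndufa4 (163 ± 30.1) and Ndufa10 (161 ± 19.5). The 4 complex II genes were near each other, from Sdhb, the iron-sulfur subunit (87.1 ± 17.5), over Sdhd (114 ± 25.1) and Sdhc (132 ± 35.7), the membrane anchors, to Sdha, the flavoprotein (145 ± 23.5).

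Assembly factors were expressed well below the subunits. The median was 14.4 RPKM over the complex I assembly factors and 15.4 over those of complex IV, against 55.4 for complex I, 123 for complex II, 77.7 for complexes III and IV each, and 99.3 for complex V. The exceptions at the top were Cox17, the copper chaperone of complex IV (184 ± 89.6), and Ndufaf2 (47.4 ± 21.5), followed among the complex I factors by Ndufaf4 (19.5 ± 4.63) and Ndufaf8 (19.3 ± 5.34) and among the complex IV factors by Cox20 (27.0 ± 8.74) and Cox16 (17.4 ± 3.65).

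**Figure D1:**
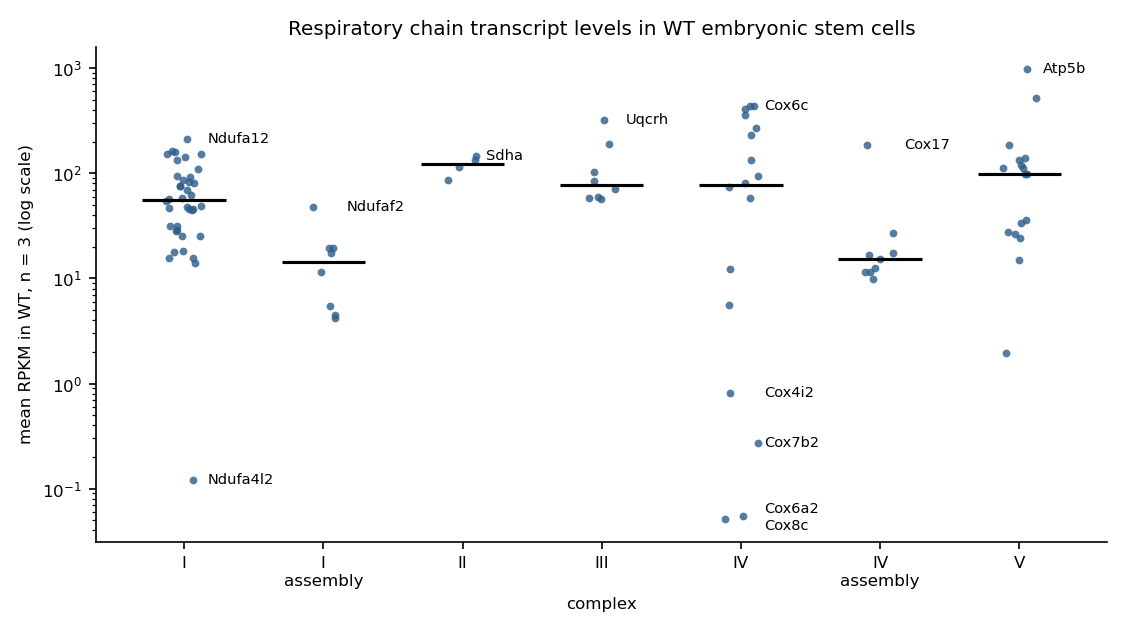
Mean RPKM of each member in WT (n = 3 samples, log scale), grouped by complex; each point is a gene, horizontal bars are medians, and Cox8b, at 0, cannot be drawn. Atp5b stands highest at 971 RPKM, and the isoform genes Ndufa4l2, Cox4i2, Cox6a2, Cox7b2 and Cox8c lie below 1 RPKM.

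The complex IV isoforms of other tissues were at or near the limit of detection. In WT, the lung isoform Cox4i2 was at 0.811 ± 0.311 RPKM against 410 for its ubiquitous partner Cox4i1, the muscle isoform Cox6a2 at 0.0552 ± 0.0592 against 57.9 for Cox6a1, and the testis isoform Cox7b2 at 0.272 ± 0.121 against 361 for Cox7b. Cox8b, the muscle isoform, had no read in any of the 15 samples and the testis isoform Cox8c had 0 to 7, against 231 ± 113 RPKM for Cox8a in WT. Testis Cox6b2 (12.2 ± 0.932) and muscle Cox7a1 (5.56 ± 1.20) were the only isoforms of this list above 1 RPKM in WT, against 269 for Cox6b1 and 94.1 for Cox7a2. Cox6a2, Cox7b2, Cox8b and Cox8c did not reach the mean of 10 counts required for a test in the KO experiment, so 98 members were tested there. In the full-deletion experiment 100 were tested, without Cox8b and Cox8c.

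Short exons and shared sequence limit these values. The members had a median of 759.5 exonic bases, against 3314.5 over all genes tested. Of the 95 members matched to the NCBIM37 annotation (the mm9 assembly), 50 shared at least 1 of their possible 47-base reads with another place in the genome, where multi-mapping reads were placed at random. Over 50% were shared for Atp5g2, Atp5l, Cox5b, Atp5h, Uqcrb and Cox7a2l, and their values are uncertain in that respect. No possible read was shared for Ndufa4l2, Sdhb, Ndufaf4, Ndufb10, Atp5e, Cox18 or Uqcrfs1. The 3 genes for subunit c of the ATP synthase ring, which encode the same mature protein, lay at 36.1 ± 9.42 (Atp5g1), 26.4 ± 4.45 (Atp5g2) and 111 ± 26.2 RPKM (Atp5g3) in WT.

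The promoters of a few members named below are shown to give the sequence at their start sites. They were picked by hand, each holds a match to a motif searched here, and Ndufa4l2 is not among them. RefSeq (GRCm38.p6) held a promoter, from 250 bases before the start to 50 after it, for 84 of the 102 members. Exact matches on either strand were searched for the core GCGCATGCG of the factor NRF1, for CCGGAAG, read by ETS factors such as GABP, and for AAGATGGCG, read by YY1, factors known to control many genes of mitochondria. The NRF1 core occurred in 10 of the 84 promoters (11.9%), against 3.7% of the 10882 promoters of genes tested in the KO experiment. CCGGAAG occurred in 22 (26.2%, against 17.6%), AAGATGGCG in 9 (10.7%, against 3.07%), and at least 1 of the 3 in 35 (41.7%, against 22.9%). A match describes the letters of this window and is not evidence of binding.

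Each sequence below has 150 bases, 120 before the annotated start and 30 after it, 5′ to 3′ on the strand of the gene, with matches in capitals. Sdhb (chr4:140961151-140961300, plus strand), Uqcrh (chr4:116075041-116075190, minus) and Cox8a (chr19:7217587-7217736, minus) hold CCGGAAG or its reverse complement beside the start. Ndufaf4 (chr4:24897963-24898112, plus) and Ndufa11 (chr17:56717642-56717791, plus) hold the NRF1 core, and Atp5k (chr5:108434370-108434519, minus) holds both. In these 3 the core overlaps its own reverse complement by all but 1 base, so that 10 letters are in capitals.
Sdhb: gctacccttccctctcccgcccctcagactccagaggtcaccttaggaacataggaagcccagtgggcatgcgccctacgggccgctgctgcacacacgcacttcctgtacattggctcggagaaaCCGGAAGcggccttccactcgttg
Uqcrh: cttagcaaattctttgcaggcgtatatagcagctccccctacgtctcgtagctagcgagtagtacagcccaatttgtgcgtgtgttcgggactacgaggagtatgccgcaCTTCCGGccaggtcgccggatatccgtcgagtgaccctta
Cox8a: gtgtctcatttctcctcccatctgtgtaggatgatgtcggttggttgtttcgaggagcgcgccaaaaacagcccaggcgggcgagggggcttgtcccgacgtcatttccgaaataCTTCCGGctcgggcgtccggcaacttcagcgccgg
Atp5k: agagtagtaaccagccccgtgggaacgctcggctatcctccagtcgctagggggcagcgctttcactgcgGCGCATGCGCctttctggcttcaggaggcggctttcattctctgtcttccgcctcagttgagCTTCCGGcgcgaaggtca
Ndufaf4: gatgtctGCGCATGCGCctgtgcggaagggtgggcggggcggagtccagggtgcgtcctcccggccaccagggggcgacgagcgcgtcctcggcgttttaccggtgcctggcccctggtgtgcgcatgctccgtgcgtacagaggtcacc
Ndufa11: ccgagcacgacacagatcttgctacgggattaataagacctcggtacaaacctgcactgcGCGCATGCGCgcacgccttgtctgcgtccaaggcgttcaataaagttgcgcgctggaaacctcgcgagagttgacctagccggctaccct

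The comparison of KO with WT asked which members respond to the loss of Hmga1, with the batch as a term. WT c was alone in its batch, so the contrasts with WT rested on batches a and b. No member of the 98 passed an adjusted p of 0.05 (quasi-likelihood test of edgeR, Benjamini-Hochberg over every gene tested), where 0.0647% of all genes tested did. Of the members 8 had an unadjusted p under 0.05, where 1747 of 13912 genes tested had one. The limma-trend test also called 0, and the Wald test of DESeq2 called 1, Ndufa4l2 (log2 fold change 4.85, adjusted p = 0.00292). The shares of all genes called by limma-trend and DESeq2 are not given here. The median log2 fold change was 0.07 over the members and -0.01 over all genes tested. By complex it was 0.08 in complex I, 0.03 in complex II, 0.12 in complex III, 0.10 in complex IV and 0.02 in complex V, and 0.03 and -0.06 for the assembly factors of complexes I and IV.

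Ndufa4l2, a paralogue of Ndufa4 that is known as a hypoxia-inducible gene, differed most. It had 2, 1 and 5 reads in WT a, b and c, 90 and 18 in KO a and b, 42 and 10 with Hmga1 added back and 34 and 22 with Hmga2 added back. All 6 samples of the KO line and its derivatives, in which the differentiation markers were at a lower sum, were above all 3 WT samples, and in CPM the lowest of the 6 was 0.750 and the highest WT sample 0.208. In the second experiment it had 8, 1 and 2 reads in WT_2 and 34, 30 and 30 in the full deletion, again without overlap.

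The fitted log2 fold change of Ndufa4l2 against WT was 4.81 (SE 0.67, adjusted p = 0.0534) in KO, 3.83 (SE 0.71, adjusted p = 0.102) with Hmga1 added back and 4.15 (SE 0.70, adjusted p = 0.0734) with Hmga2 added back, none past the threshold in edgeR. These fitted values rest on few WT reads. In batches a and b together the scaled ratio of reads to WT was 32.8 in KO, 16.0 with Hmga1 added back and 17.3 with Hmga2 added back, with exact 95% intervals for counting error alone of 10.9 to 162, 5.19 to 80.2 and 5.63 to 86.5. A fit without WT b had WT a as its only WT sample in a shared batch, so its calls are not given. The 3 comparisons share the WT samples. In WT the level per length of Ndufa4l2 was 0.121 RPKM, against 163 for Ndufa4.

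**Figure D2:**
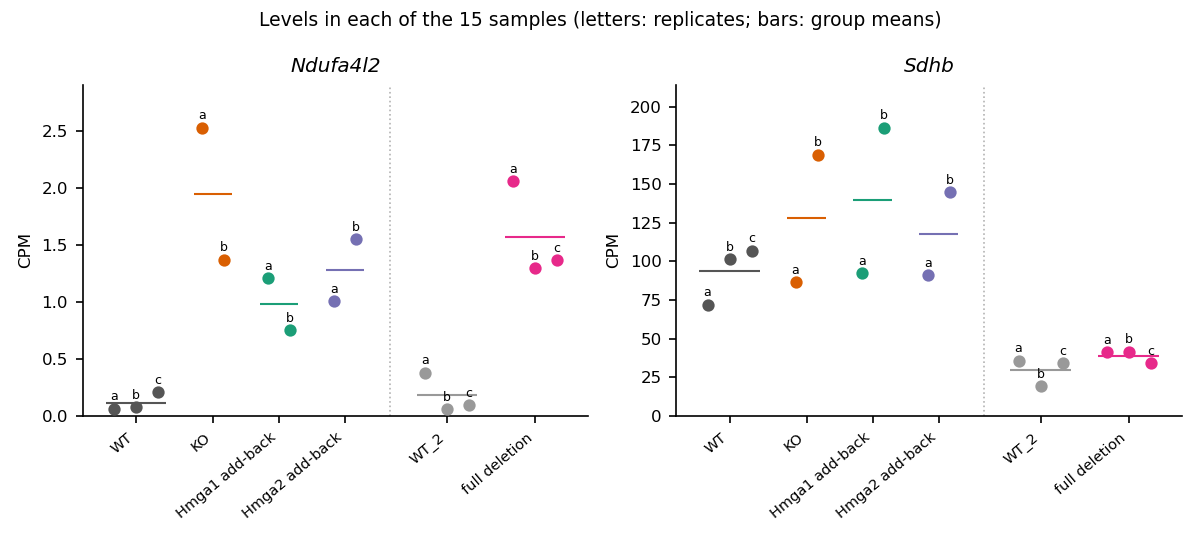
CPM of Ndufa4l2 (left) and Sdhb (right) in each of the 15 samples; letters are replicates, horizontal bars are group means, and the dotted line separates the 2 experiments, which were normalised separately. For Ndufa4l2 the KO-derived samples (0.750 to 2.52 CPM) and the full deletion (1.30 to 2.06) lie above their WT groups (at most 0.208 and 0.380), whereas Sdhb spreads with the batch.

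Sdhb had the next smallest p in all 3 comparisons with WT. It was at 72.0, 101 and 107 CPM in WT a, b and c, at 86.7 and 169 in KO a and b, at 92.4 and 186 with Hmga1 added back and at 90.8 and 145 with Hmga2 added back. Within batch a the derived lines were at 120%, 128% and 126% of WT, and within batch b at 167%, 184% and 143%, but their batch a samples lay below WT b and c, so the groups overlap. The log2 fold change was 0.50 (SE 0.14, adjusted p = 0.243) in KO, 0.61 (SE 0.14, adjusted p = 0.160) with Hmga1 added back and 0.42 (SE 0.14, adjusted p = 0.226) with Hmga2 added back. DESeq2 called it in the Hmga1 add-back (log2 fold change 0.60, adjusted p = 0.0377). The other complex II genes in KO were at 0.04 (Sdha), 0.02 (Sdhc) and -0.07 (Sdhd).

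A few low or small members followed. Ndufv3, a small subunit of the NADH-binding module, was at 57.8, 85.6 and 75.3 CPM in WT and 113 and 97.1 in KO, with a log2 fold change of 0.56 (SE 0.19, adjusted p = 0.309). Cox7a1 had 54, 24 and 61 reads in WT and 159 and 39 in KO, 261% of WT within batch a and 159% within batch b, with a log2 fold change of 1.06 (SE 0.38, adjusted p = 0.329). Cox4i2 had 29, 7 and 11 reads in WT and 64 and 17 in KO (log2 fold change 1.10, SE 0.45, adjusted p = 0.381). Cox6b2 was at 0.27 (SE 0.42). Both KO samples lay above all WT samples in 5 members (Ndufa4l2, Ndufa1, Ndufv3, Cox7a1 and Cox4i2) and below them in 1 (Atp5c1), that is 6 of 98, where 13% of all genes tested lay above and 10.5% below.

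In the add-back lines no member passed against WT either. Of all genes tested, 0.0431% passed for the Hmga1 and 0.165% for the Hmga2 add-back. In each, 5 members had an unadjusted p under 0.05, where 1844 (Hmga1) and 2352 (Hmga2) of 13912 genes tested had one. The limma-trend test called 0 in each, and DESeq2 called 2 (Ndufa4l2 and Sdhb) in the Hmga1 add-back and 1 (Ndufa4l2, adjusted p = 0.0116) in the Hmga2 add-back. The shares of all genes called by these 2 tests are not given here either. The median log2 fold change was 0.01 in the Hmga1 and -0.05 in the Hmga2 add-back. Atp5k, which encodes the small subunit e, was at 0.44 (SE 0.15, adjusted p = 0.306) in the Hmga1 add-back, and Cox7a1 at 1.01 (SE 0.38, adjusted p = 0.244) in the Hmga2 add-back. Over the KO and both add-backs, 1 member (Ndufa4l2) was above all WT samples in all 6 samples and 1 (Atp5c1) below, against 5.15% and 3.69% of all genes tested. Atp5c1 was at 336, 324 and 352 CPM in WT and between 258 and 319 in the 6 others.

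The counts against WT rested on WT a and WT b, the only WT samples that shared a batch with the derived lines. Without WT b more members and a larger share of all genes passed. That fit had WT a as its only comparable WT sample, so no result is read from it.

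Comparing the add-backs with the KO asked whether returning Hmga1, or supplying Hmga2, moves these genes. No member passed against KO in either. In the Hmga1 add-back 0 had an unadjusted p under 0.05, where 390 of 13912 genes tested did, and 0% of all genes passed. In the Hmga2 add-back 3 members had one, where 708 of 13912 genes tested did, and 0.0144% of all genes were called. DESeq2 and limma-trend called 0 members in both. Ndufa4l2 was at -0.98 (SE 0.44, adjusted p = 1) in the Hmga1 add-back, Ndufv3 at -0.35 (SE 0.19) and Atp5h, for subunit d of the stator stalk, at -0.31 (SE 0.17). In the Hmga2 add-back the smallest p belonged to the small complex III subunit gene Uqcr11 (-0.40, SE 0.13), Uqcrc1 (-0.30, SE 0.11) and Ndufc2 (-0.32, SE 0.13), each with an adjusted p of 0.877. There, 80 of 98 members had a negative value, 36 of 38 in complex I, against 6934 of 13912 over all genes tested, with a median of -0.10 over the members and 0.00 over all genes. Genes with at most 1000 exonic bases had a median of -0.09 (923 genes), and the 60 members of that class -0.13. Both Hmga2 add-back samples lay below both KO samples in 16 members and above in 0, where 9.87% of all genes lay below and 10.5% above. Uqcr11 was at 36.9 CPM or just above in both KO samples and at 26.2 CPM in Hmga2 add-back a, with b also below KO.

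**Figure D3:**
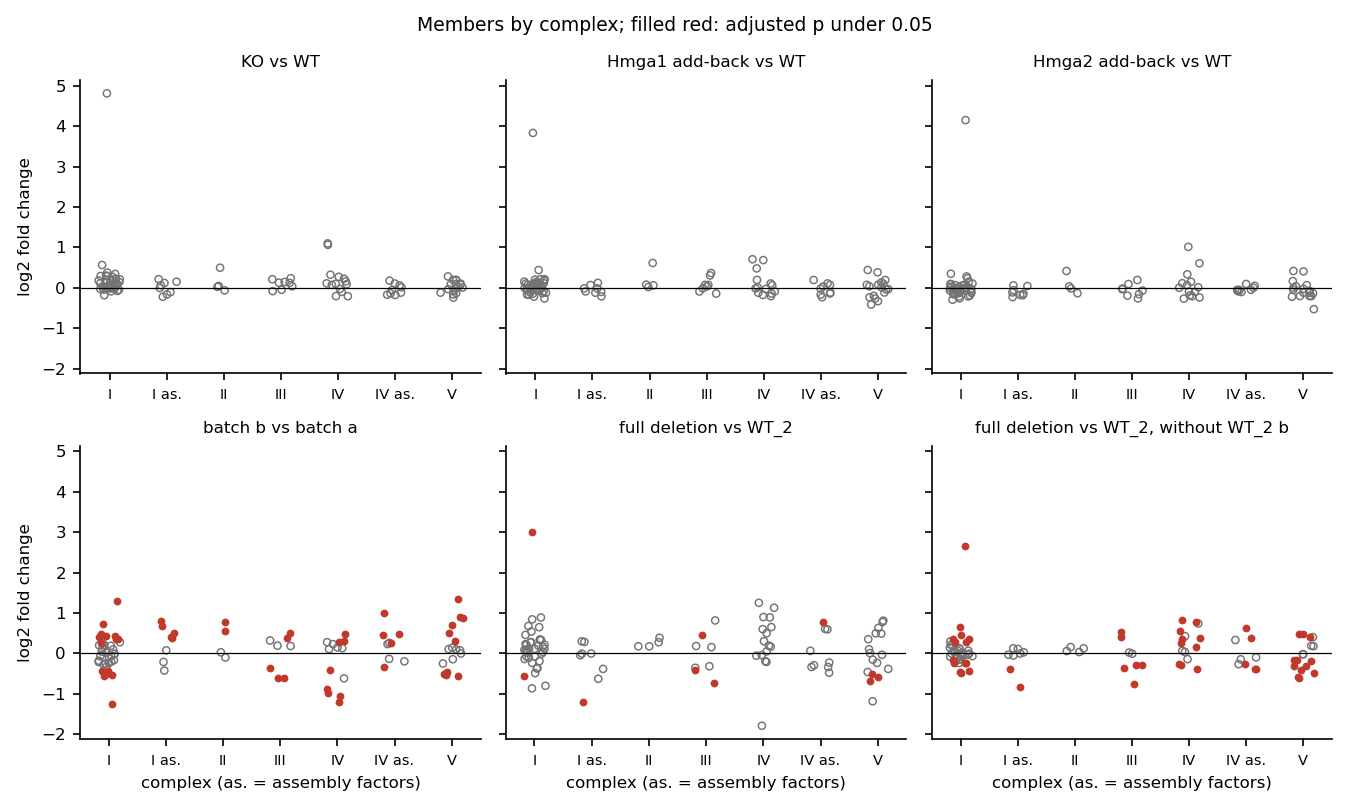
log2 fold changes of the tested members by complex in 6 comparisons; each point is a gene, and filled red points had an adjusted p under 0.05 in edgeR. No point is filled in the 3 comparisons with WT of the KO experiment, 50 are filled between batches, 10 in the full deletion, and 49 in the full deletion without WT_2 b.

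The comparison with the most members called in the KO experiment was that between batches. Between batch b and batch a, with the genotype in the model, 50 of 98 members passed (31 higher and 19 lower in batch b), where 35.6% of all genes passed (18.6% higher, 17.1% lower). The number ranged from 26 to 53 when 1 sample was left out, and was lowest without KO a. The shares of all genes in those fits are not given here. Of the 8 complex I assembly factors, 5 were higher in batch b and 0 lower, with a median of 0.39. In complex I 9 were higher and 6 lower of 38, in complex II 2 and 0 of 4, in complex III 2 and 3 of 8, in complex IV 3 and 5 of 14, among its assembly factors 4 and 1 of 9, and in complex V 6 and 4 of 17.

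Cox8a, the ubiquitous form of the smallest complex IV subunit, had the smallest p of the members. It was at 197, 214, 224 and 219 CPM in the 4 batch a samples (WT, KO, Hmga1 and Hmga2 add-back) and at 93.3, 98.3, 94.7 and 84.6 in batch b, with 87.2 in WT c. The 2 batches did not overlap, which held for 31 members above and 21 below and for 18% and 15.3% of all genes tested, and the log2 difference was -1.20 (SE 0.08, adjusted p = 0.000302). Ndufa11, a membrane-arm subunit, was at 67.1, 114, 87.2 and 90.2 CPM in batch a and at 34.4 to 40.1 in batch b (log2 difference -1.25, SE 0.13). Cox5b also fell, by 1.06 (SE 0.17) on the log2 scale.

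Atp5k rose most. It was at 13.6, 16.1, 16.9 and 15.9 CPM in batch a and at 31.5, 34.7, 46.6 and 47.04 in batch b, with 59.5 in WT c (log2 difference 1.34, SE 0.11, adjusted p = 0.000596). The matrix-arm subunit gene Ndufa5 was at 7.08 to 8.82 CPM in batch a and 17.7 to 23.2 in batch b (1.28, SE 0.13). The complex IV chaperone gene Cox20 (0.99, SE 0.13), Sdhb (0.79, SE 0.10), the subunit g gene Atp5l (0.87, SE 0.14), Ndufaf4 (0.79, SE 0.10), Ndufc1 (0.73, SE 0.10) and Ndufaf2 (0.68, SE 0.12) were also higher. The subunit c genes did not move together: Atp5g3 (0.91, SE 0.11) and Atp5g1 (0.69, SE 0.09) were higher and Atp5g2 lower (-0.54, SE 0.10) in batch b, although all possible reads of Atp5g2 are shared with other places. Further members that were lower were Uqcrc1 (-0.60, SE 0.07), Uqcrq (-0.62, SE 0.11), Atp5j (-0.56, SE 0.09), Ndufc2 (-0.54, SE 0.09), Ndufa3 (-0.57, SE 0.12), Cox6b2 (-0.88, SE 0.30) and Cox4i2 (-0.98, SE 0.33).

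The difference between batches moved with the base composition of the exons. Over the 91 members with a value, the Pearson correlation of the log2 difference with the percentage of A and T bases was 0.345, and over 12180 genes tested it was 0.553; genes of 1 library pair share its depth and composition, so these are descriptions. The 23 members with at most 45% A and T had a median of -0.43, the 55 with 45% to 55% had 0.11 and the 13 with over 55% had 0.15. For the WT_2 b library against WT_2 a and c the correlation over 93 members was weaker, at 0.211 (Spearman 0.122), and the medians of the 3 classes were -0.45, -0.37 and -0.03 (23, 56 and 14 members). Atp5k (46.1% A and T) was high and Cox8a (41.1%) low in both. Over 98 members the Pearson correlation of the batch difference with the WT_2 b difference was 0.187 (Spearman 0.0384). The sign was the same in 46 of 98 (46.9%). Over 13050 genes tested the values were 0.179 (Spearman 0.19) and 56.7%, so the weak Pearson correlation was not particular to the members. Over all genes tested the WT_2 b correlation was 0.232. Comparisons of genotypes had negative correlations with A and T content. In the full deletion it was -0.305 over the members and -0.335 over all genes, and without WT_2 b -0.237 and -0.302. In KO against WT it was -0.264 over the members and -0.117 over all genes. The part of base composition in the results was not tested.

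**Figure D4:**
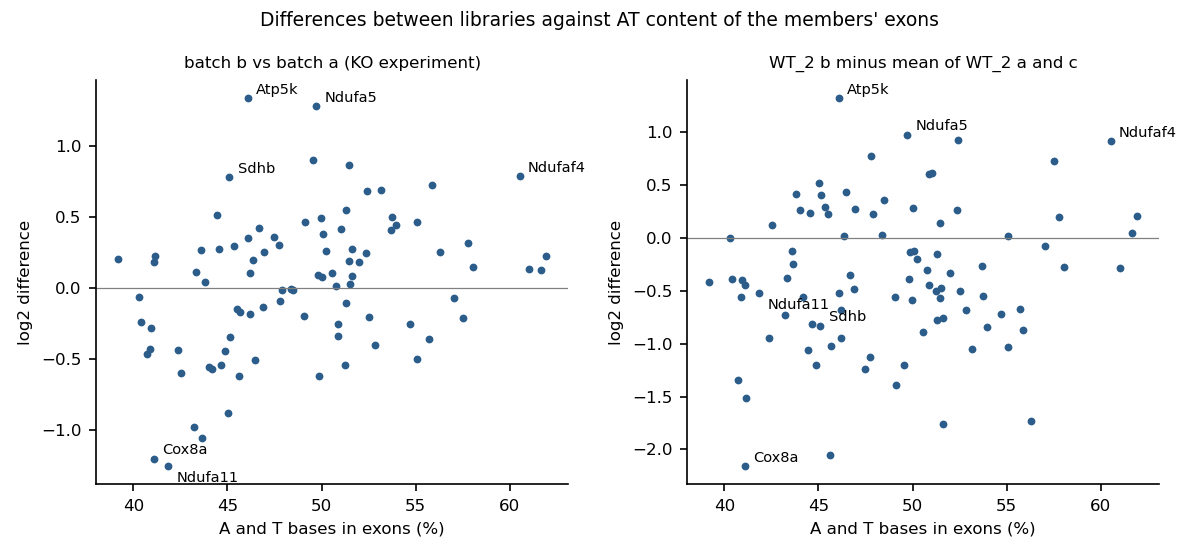
log2 difference of each member against the percentage of A and T bases in its exons, for batch b against batch a (left) and for WT_2 b against the mean of WT_2 a and c (right); each point is a gene. Cox8a is low and Atp5k high in both panels, at -1.20 and 1.34 on the left and -2.15 and 1.32 on the right. The 2 differences had the same sign in 46 of 98 members (46.9%) and in 56.7% of 13050 genes tested.

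In the full deletion, 10 of 100 members passed against WT_2, 3 higher and 7 lower, where 8.25% of all genes passed (4.47% higher, 3.77% lower), so the share was near that of the whole table. A further 20 had an unadjusted p under 0.05 without passing, 30 of 100 in all, where 4843 of 13098 genes tested had one. DESeq2 called 21 (6 higher, 15 lower) and limma-trend 10. The shares of all genes called by these tests are not given here. The count was 0 without WT_2 c or without any 1 of the 3 full-deletion samples, and 49 without WT_2 b.

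Complex III and V held most of the members that fell. Uqcrh was at 220, 198 and 212 CPM in WT_2 a, b and c and at 116, 146 and 119 in the full deletion, without overlap, with a log2 fold change of -0.73 (SE 0.12, adjusted p = 0.0279). Uqcrfs1, the Rieske iron-sulfur protein, was at 88.5, 100 and 92.6 CPM in WT_2 and at 69.7, 75.2 and 67.4 in the full deletion (-0.41, SE 0.10, adjusted p = 0.0488). The small subunit gene Uqcrq went the other way, from 23.0, 21.1 and 23.6 CPM to 31.3, 29.8 and 30.9 (0.44, SE 0.10, adjusted p = 0.0419). The WT_2 and full-deletion samples did not overlap in any of the 3, which is common in this comparison: the full deletion lay wholly above WT_2 in 24 of 100 members and 26.7% of all genes tested, and wholly below in 22 members and 24.6% of all genes.

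Of complex V, Atp5e, the epsilon subunit, was at 72.4, 95.7 and 83.8 CPM in WT_2 and at 52.4, 59.0 and 44.1 in the full deletion (-0.70, SE 0.15, adjusted p = 0.0392). The stalk genes Atp5j (-0.57, SE 0.13, adjusted p = 0.0440) and Atp5h (-0.52, SE 0.12, adjusted p = 0.0425) also fell. In complex I, the membrane-arm gene Ndufb10 fell from 163, 194 and 167 CPM to 113, 123 and 121 (-0.55, SE 0.11, adjusted p = 0.0342). The groups did not overlap in these 4 genes either, as in the shares of all genes just given.

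Ndufaf4, which takes part in early complex I assembly, had the largest fall of the members that passed. It was at 74.5, 151 and 85.9 CPM in WT_2 a, b and c and at 44.0, 48.8 and 41.8 in the full deletion, with a log2 fold change of -1.21 (SE 0.26, adjusted p = 0.0388). WT_2 b was the highest sample, and without it the change was -0.84 (SE 0.08, adjusted p = 1.43e-07). Cox18, an insertase for a mitochondrially encoded complex IV subunit, rose from 6.74, 4.23 and 5.49 CPM to 10.2, 9.07 and 9.04 (0.77, SE 0.19, adjusted p = 0.0493). Ndufa4l2 rose most, by 3.01 (SE 0.54, adjusted p = 0.0304), with a scaled read ratio of 8.05 (exact 95% interval for counting error 4.30 to 16.7). Its call was lost in 4 of 12 alternatives, with adjusted p up to 0.150.

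**Figure D5:**
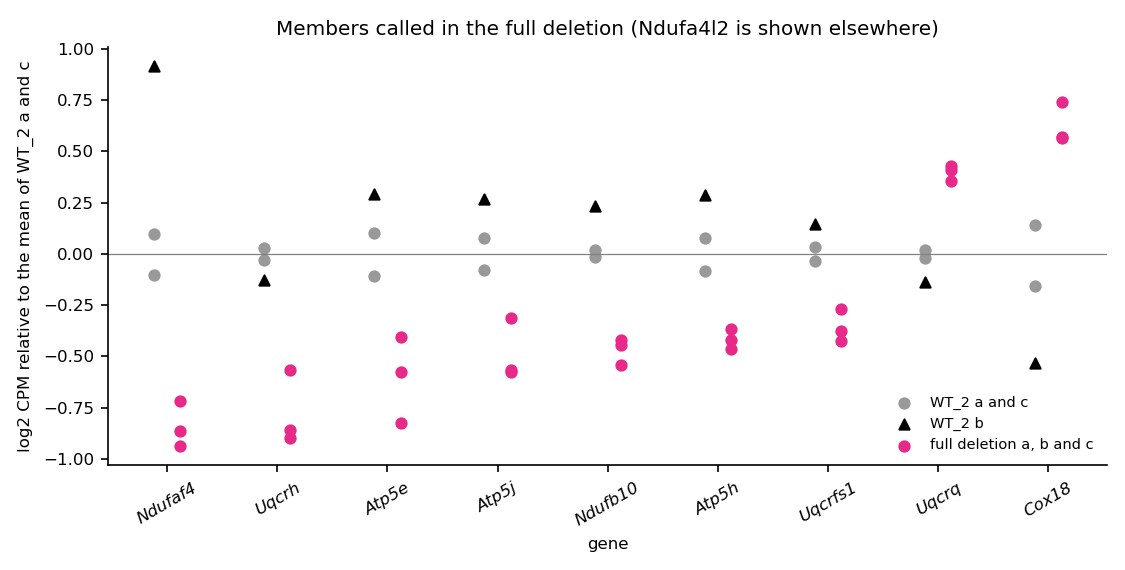
log2 CPM of 9 of the 10 members called in the full deletion, relative to the mean of WT_2 a and c; grey circles are WT_2 a and c, black triangles WT_2 b and magenta circles the 3 full-deletion samples. For each gene the full-deletion samples lie apart from all 3 WT_2 samples, and WT_2 b lies farthest from its group in Ndufaf4, at 0.91.

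WT_2 b lay at the far side of its group for many other members. It held Cox8a at 15.4 CPM against 74.2 and 66.6 in WT_2 a and c (21.9% of their mean), Cox7a1 at 4 reads against 47 and 61, Ndufb6 at 25.6% and Cox6a1 at 30.6% of their mean, and Atp5k at 252%. Median ratios of highest to lowest replicate over the members were 1.52 in WT_2 and 1.13 in the full deletion, against 1.42 and 1.13 over all genes tested. WT_2 without b gave 1.10 over the members and 1.085 over all genes, but dropping a sample cannot raise such a ratio. Among the 38 members of complex I, WT_2 b raised the pooled median log2 fold change from -0.01 without it to 0.11 with it. Over the tested members the median was -0.00 without it (99 members) and 0.10 with it (100). Over all genes tested it was 0.03 and 0.04.

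Without WT_2 b, 49 of 99 tested members passed, 21 higher and 28 lower, where 42.5% of all genes passed (20.5% higher, 22.0% lower). All 10 members above passed in the same direction, and the smallest p of that fit belonged to Cox8a, which rose by 0.82 (SE 0.07, adjusted p = 3.65e-08) from 74.2 and 66.6 to 129, 118 and 127 CPM. By complex, 9 of 17 in complex V were lower and 3 higher, 4 of 8 in complex III lower and 2 higher, and 7 of 15 in complex IV higher and 3 lower. In complex I 7 were higher and 7 lower of 38, among its assembly factors 2 of 8 were lower, and among those of complex IV 2 were higher and 3 lower of 9. In complex II 0 of 4 passed, with 1 at an unadjusted p under 0.05 and values from 0.03 to 0.16.

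Among the isoforms, Cox6b2 rose by 0.37 (SE 0.12, adjusted p = 0.0193) without WT_2 b and was at 0.17 (SE 0.18) with it. Cox7a1 was at 0.90 (SE 0.56) with and 0.42 (SE 0.22) without WT_2 b, Cox4i2 at 0.30 (SE 0.36) and 0.04 (SE 0.33), and Cox6a2 at 0.60 (SE 0.37) and 0.74 (SE 0.44), none of which passed. Cox7b2, at 11, 32 and 7 reads in WT_2 and 2, 11 and 3 in the full deletion, was at -1.79 (SE 0.83, adjusted p = 0.158). The subunit c genes Atp5g1 (0.48, SE 0.19) and Atp5g2 (0.40, SE 0.13) passed without WT_2 b and Atp5g3 (0.19, SE 0.09, adjusted p = 0.0990) did not; with WT_2 b they were at 0.78, 0.63 and 0.49 and none passed. In KO they were at 0.02, 0.20 and -0.24.

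The difference between the 2 losses of Hmga1 was tested as the full-deletion effect minus the KO effect in a joint fit of all 15 samples. No member of 98 passed, where 0.375% of all genes did. Of the members 21 had an unadjusted p under 0.05, where 2441 of 13050 genes tested had one. DESeq2 and limma-trend called 0 members. The smallest p belonged to Atp5j (-0.69, SE 0.21, adjusted p = 0.190), Uqcrh (-0.65, SE 0.20, adjusted p = 0.190) and Ndufb4, a membrane-arm subunit (-1.03, SE 0.34, adjusted p = 0.216). Uqcrh had a log2 fold change of -0.73 in the full deletion and at 123 and 131 CPM in KO lay between the lower WT samples (119 and 154) and below WT c (250). Without WT_2 b 8 members passed, 1 higher and 7 lower, Atp5j, Uqcrh and Ndufb4 among them. The share of all genes passing in that fit is not given here. In the full deletion against WT_2, the share of all genes rose from 8.25% to 42.5% without WT_2 b. The count of 8 is therefore not read as a result about the members.

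The related gene lists give the rest of the pathway. In KO, 0 genes passed of the tested members of the 5 lists (assembly factors with other names, 31; citric acid cycle, 19; mitochondrial biogenesis, 19; electron carriers and inputs, 20; ATP synthase and transport genes with other names, 11), with 4, 1, 0, 5 and 1 at an unadjusted p under 0.05. The largest KO value of the carriers was that of Cyct, testis cytochrome c, at 1.90, 7.53 and 4.65 CPM in WT and 7.69 and 15.2 in KO (log2 fold change 1.45, SE 0.33, adjusted p = 0.162). In the full deletion 1 gene of these lists passed: Cycs, somatic cytochrome c, fell from 83.8, 129 and 88.9 CPM to 40.3, 53.5 and 46.0 (-1.11, SE 0.19, adjusted p = 0.0283; -0.89 without WT_2 b).

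Of the 19 biogenesis genes tested in the full deletion, 0 passed with WT_2 b (median -0.24). An unadjusted p under 0.05 was seen in 11 of them and in 4843 of 13098 genes tested. Without WT_2 b 12 passed, 10 lower and 2 higher, against the 42.5% of all genes given above. Ssbp1, the single-strand binding protein of mitochondrial DNA (-0.88, SE 0.07), the helicase gene Twnk (-0.44, SE 0.06) and Mterf3, a regulator of mitochondrial transcription (-0.54, SE 0.09), led them. Transcripts of the factors whose motifs were searched were among the lower ones: Nrf1 (148 and 161 CPM in WT_2 a and c, 273 in b, 112 to 127 in the full deletion), Gabpa (364, 399 and 524 in a, c and b, 305 to 313) and Yy1 (94.0, 96.4 and 86.6, 74.2 to 76.1). Their log2 fold changes without WT_2 b were -0.36 (SE 0.06), -0.31 (SE 0.05) and -0.34 (SE 0.06). With WT_2 b, 5 of the 19 biogenesis genes had a positive value and 14 a negative one. Among the 5 were Esrra (0.62, SE 0.20), Pprc1 (0.35, SE 0.16) and Gabpb1 (0.23, SE 0.10). Of the 19 citric acid cycle genes, 1 rose and 7 fell without WT_2 b, among them Dld (-0.70, SE 0.07) and Idh2, which rose by 0.60 (SE 0.07). The same settings gave 3 higher and 4 lower of 19 carriers, 3 and 2 of 31 other assembly factors, and 1 and 4 of 11 other ATP synthase and transport genes.

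The 2 WT groups themselves differed in several members, chosen here after their values were seen and given with no test since the experiments were normalised separately. Atp5g1 was at 36.1 RPKM in WT and 5.003 in WT_2, Ndufc1 at 69.8 and 11.04, Cox6a1 at 57.9 and 10.7, and Ndufb4, in the other direction, at 31.4 and 107. These WT_2 means include WT_2 b, which widened each difference. It was at 43.5% (Atp5g1), 50.4% (Ndufc1), 30.6% (Cox6a1) and 172% (Ndufb4) of the mean of WT_2 a and c.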

How the data were processed

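RNA depleted of ribosomal RNA was sequenced strand-specifically (50-base single reads). The authors trimmed 3 bases, aligned to mm9 with QuasR and Bowtie (at most 100 alignments, 1 placed at random), and deposited whole-number counts per UCSC known gene, on the gene's strand. No spliced alignment is described for these counts; a median of 82% of a member's possible 47-base reads lie inside 1 exon. The deposited exonic length per gene was used for RPKM.

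The test took every gene whose mean count reached 10 (13912 genes for the KO and 13098 for the full-deletion experiment) with TMM scaling and edgeR 4.0.16 in R 4.3.3, quasi-likelihood, Benjamini-Hochberg over all genes, called at an adjusted p under 0.05. The KO experiment was fitted with all 9 samples and the letters a, b and c as batches (the study's batch variable groups libraries by preparation day and flow cell), the full deletion without a batch term. CPM and RPKM use TMM library sizes within each experiment. Each SE is the log2 fold change divided by the square root of its F value. Replicates of a group differed beyond counting error (lowest chi-square per degree of freedom 3.88), so none were merged for the tests. The read ratios of Ndufa4l2 sum the reads of a group's samples, so their exact intervals leave out the spread between replicates. Scripts were tested on simulated data. Intervals cover counting error only.

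Named were, per comparison, up to 10 called members per direction by size of change (where none was called, the 3 smallest p), the 3 highest of each complex in WT, the restricted isoforms and subunit c genes, and up to 3 genes per other list by p; other names were chosen after values were seen. Members and lists were chosen with earlier results of these data known. The study's limma-trend (limma 3.58.1) and DESeq2 1.42.0, other scaling and filters, the study's threshold (adjusted p under 0.01 and 2-fold), the replicate block and leaving out each sample were alternatives.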

Additional observations from a re-analysis of the deposited data

How the results depend on the processing

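The number of members called at the threshold of 0.05 changed by over 1.5 times as follows. In KO against WT it was 1 with no filter on low counts, 1 with DESeq2 and 1 with no replicate block, and 0 to 2 with 1 sample left out. In the Hmga1 add-back against WT it was 2 with DESeq2 and 0 to 1 with 1 sample left out. In the Hmga2 add-back against WT it was 1 with no filter, 1 with DESeq2 and 0 to 3 with 1 sample left out. With 1 sample left out, the fit without WT b reached the highest count in each comparison with WT. It had WT a as its only WT sample in a shared batch. Between batches it was 5 at the study's threshold and 26 to 53 with 1 sample left out. In the full deletion it was 0 at the study's threshold, 2 with scaling by summed counts, 21 with DESeq2, 3 with the replicate block and 0 to 49 with 1 sample left out. The full-deletion effect minus the KO effect gave 0 to 8 with 1 sample left out. Both add-backs against KO stayed at 0 under each alternative run. At the study's threshold 326 of 13912 genes tested passed between batches and 9 of 13098 in the full deletion. Apart from these and the full deletion without WT_2 b, the shares of all genes under the alternatives are not given here. The counts are therefore not read as results about the members.

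Letters do not pair the full-deletion samples: same-letter correlations of deviations were 0.1, 0.111 and -0.0568, so the replicate block there is only an alternative. In the KO experiment the batch is the replicate block of the main fit. Among single genes, Atp5k in the Hmga1 add-back against WT turned from 0.44 to -0.14 with no replicate block; neither value passed. The cause of these shifts was not tested. Depth limits Ndufa4l2, with at most 8 reads in any WT or WT_2 sample.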
